A study of Mus musculus with 12 samples.

Results

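Mesenchymal stromal cells (MSCs) from the bone marrow of C57BL/6 mice were compared after TGF-β1 in the culture supernatant of monocytic myeloid-derived suppressor cells (M-MDSCs) and after TGF-β1 alone, both with TGF-β1 at 5 ng/mL. The comparison was defined by its libraries, 3 that received TGF-β1/M-MDSC supernatant and 3 that received TGF-β1, of 12 poly(A) mRNA libraries in the series, and no measured change entered the choice. The other 6 libraries were 3 of untreated MSCs (Control) and 3 of MSCs given TGF-β1/G-MDSC supernatant, where G-MDSCs are the granulocytic kind. Of 55401 annotated genes, 11619 had at least 1 FPKM (fragments scaled to transcript length and to library size) in at least 3 of the 6 TGF-β1 and Control libraries and were tested, so that transcripts present only with supernatant did not enter. The MSCs were bought from a supplier. The MDSCs were grown out of bone marrow with GM-CSF and IL-6, sorted by flow cytometry and then cultured to condition the medium. MDSCs were kept in supplemented RPMI and MSCs in DMEM. The methods describe no sequenced arm with unconditioned MDSC medium, or with medium conditioned by cells other than MDSCs. Effects of the medium itself and of what the MDSCs secreted therefore cannot be told apart here. The labels number the libraries of a group but do not say whether they came from separate cultures, so the p-values measure the spread between these libraries, which may be technical.

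TGF-β1 drives MSCs toward myofibroblasts, contractile cells that carry α-smooth muscle actin fibres and lay down collagen and fibronectin. MDSCs are immature myeloid cells known for restraining immune responses, in large part through what they secrete. Interferons signal through cell-surface receptors, the JAK kinases and a complex that includes STAT2 and IRF9, which binds the interferon-stimulated response element (ISRE) in the promoters of antiviral genes.

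The 6 libraries compared held from 73977669 to 81837078 counts. Surface genes by which bone marrow MSCs are recognized were at unequal levels. Itgb1 (CD29) stood at 371, 394 and 380 FPKM with M-MDSC supernatant and at 388, 388 and 381 FPKM with TGF-β1 alone, and the groups overlapped. Thy1 (CD90) was at 1.46, 1.67 and 2.04 FPKM and Eng (CD105) at 0.754, 0.681 and 0.735 FPKM with M-MDSC supernatant. A set of 12 MSC markers, most of whose sum was Col1a1, Col1a2, Vim and Itgb1, came to between 2150 and 2300 FPKM with M-MDSC supernatant and to between 2310 and 2340 FPKM with TGF-β1. Of the markers of the donor myeloid cells, Ptprc (CD45) was at no more than 0.00974 FPKM and Mpo and Elane at a count of 0 in all 3 M-MDSC supernatant libraries. Lyz2 (lysozyme) read 1.68, 0.651 and 2.29 FPKM with supernatant and at most 0.094 FPKM with TGF-β1, and S100a9 read 0.98, 0.258 and 0.49 FPKM with supernatant and was at a count of 0 with TGF-β1. The 20 myeloid markers together came to between 23.1 and 29.2 FPKM with M-MDSC supernatant, to between 15.7 and 17.3 FPKM with TGF-β1 and to between 28.9 and 31.0 FPKM in Control. Most of that sum was Cd14, a lipopolysaccharide co-receptor, at 21.4, 18.5 and 21.4 FPKM with supernatant and at 12.4, 14.4 and 14.6 FPKM without.

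Replicate 3 of the M-MDSC supernatant group stood apart from the others of its group in markers of liver and kidney. Over the genes tested it did not, with a mean correlation of 0.9823 with its group against 0.9812 and 0.983 for replicates 1 and 2. The summed level of 10 hepatocyte markers was 69.8 FPKM in that library and 0.545 and 0.567 FPKM in the others of its group, with Alb (albumin) alone at 31.6 FPKM in replicate 3 and at a count of 0 in replicates 1 and 2. All 3 G-MDSC supernatant libraries carried the same markers, at 75.1 to 81.9 FPKM summed, and the TGF-β1 and Control libraries held none of their counts. Markers of kidney tubule, 14 genes led by the androgen-regulated Kap, summed to 86.5 FPKM in replicate 3 against 14.6 and 18.1 FPKM in the other libraries of the group, between 48.8 and 64.0 FPKM with G-MDSC supernatant and at most 0.6 FPKM with TGF-β1. Other such transcripts were in all 3 libraries of the group. Erythroid and platelet markers summed to between 2.14 and 4.25 FPKM there and to at most 0.0784 FPKM with TGF-β1. The immunoglobulin gene Igkc read 7.32, 4.55 and 34.4 FPKM with M-MDSC supernatant and was at a count of 0 with TGF-β1. Neither Igkc nor any hepatocyte, kidney tubule, erythroid or platelet marker was among the genes tested. Where these transcripts came from was not tested, and the main results below are given with and without replicate 3.

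**Figure D1:**
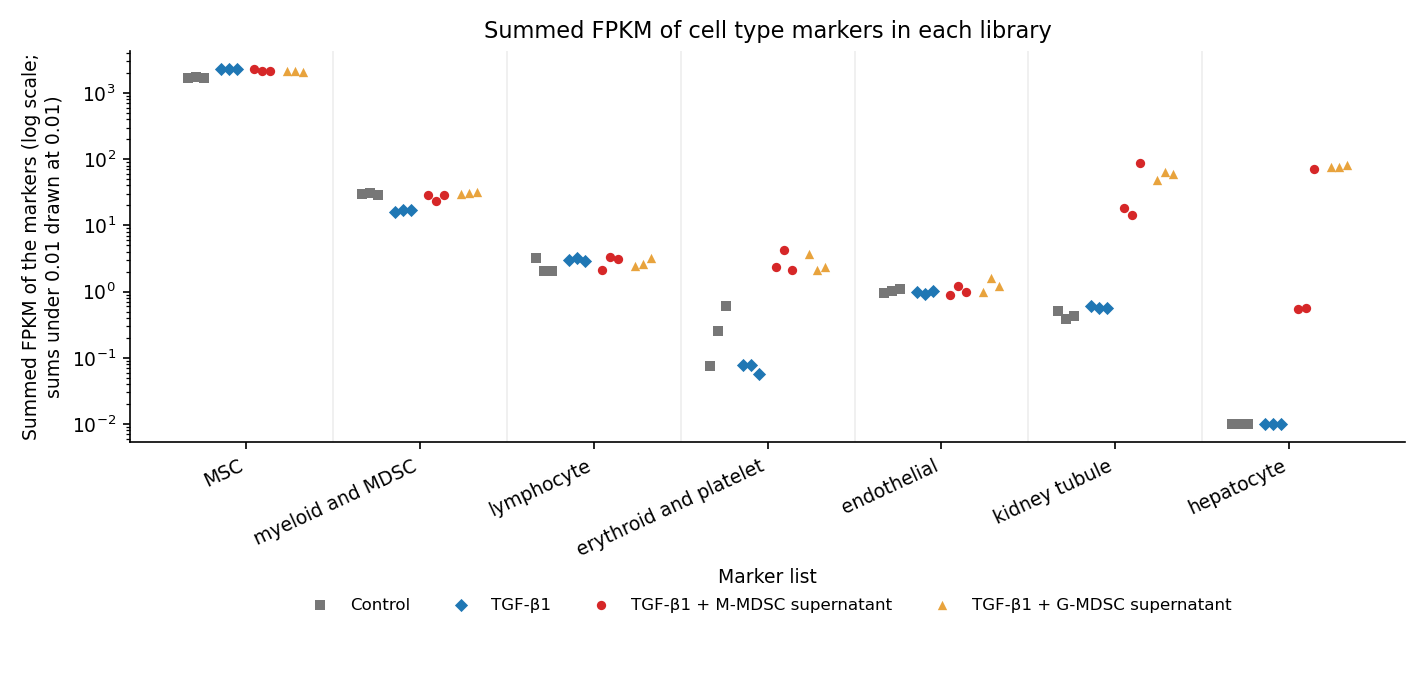
Summed FPKM (log scale) of 7 lists of cell type markers in each of the 12 libraries, coloured by group. The hepatocyte sum of 69.8 FPKM in 1 M-MDSC supernatant library sits with the G-MDSC supernatant libraries, while the other libraries of its group lie at 0.545 and 0.567 FPKM.

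With M-MDSC supernatant, 285 of the 11619 genes were higher and 214 lower than with TGF-β1 alone at an adjusted p under 0.05 in edgeR's quasi-likelihood test, 4.29% of the genes in all, 2.45% higher and 1.84% lower. The rises were larger than the falls. Called genes that rose did so by a median of 0.67 on the log2 scale, with quartiles of 0.37 and 1.71, and 113 of them more than doubled. The median of the genes called lower was -0.34, with quartiles of -0.47 and -0.25, and 7 fell below a fold of 0.5. By the rule of the study, a fold above 2 or below 0.5 with an unadjusted p under 0.05, 162 genes (1.39%) were called, 135 higher (1.16%) and 27 lower (0.232%). The 3 libraries of each group did not overlap in FPKM for 2778 genes (23.9%). Without replicate 3 of the supernatant group 214 genes were higher and 103 lower, and 300 of the 499 were called both with and without it. Leaving out each of the 6 libraries in turn kept 245 genes called every time, 188 higher and 57 lower. The falls depended more on single libraries, with 67 genes lower without replicate 2 of TGF-β1, 105 and 120 without its replicates 1 and 3, and 113 without replicate 2 of the supernatant group.

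Interferon-stimulated genes made up the strongest change. Of 37 tested effectors of the type I interferon response, 34 rose and none fell, with a median log2 fold change of 2.8 against -0.01 over all genes tested. The libraries of the 2 groups did not overlap in any of the 37, the M-MDSC supernatant libraries lying above the TGF-β1 libraries, against 23.9% of all genes tested in either direction. Leaving out any of the 6 libraries, replicate 3 included, left the same 34 called. The 3 members without a call were Oasl1, Trim25 and Ifitm2, with log2 fold changes of 0.79, 1.46 and 0.10.

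Among the 12 largest rises, Usp18 (chr6:121245906-121270917), a protease that strips ISG15 from its targets and damps interferon receptor signalling, read 74.3, 72.7 and 71.2 FPKM with M-MDSC supernatant and 0.788, 1.46 and 0.985 FPKM with TGF-β1. Its log2 fold change was 6.04 ± 0.21 (SE, n = 3 per group), 66.0-fold, with an edgeR adjusted p of 1.69e-08. Every supernatant library was far above every TGF-β1 library. Untreated MSCs stood at a mean of 5.75 FPKM, though the filter needed Control libraries to let this gene in. Ifi44 (chr3:151730922-151749960), which encodes an interferon-induced antiviral protein, stood at 28.7, 32.6 and 30.1 FPKM against 0.393, 0.413 and 0.662 FPKM, a log2 fold change of 5.93 ± 0.23. Gbp3, a guanylate-binding protein of cell-autonomous immunity, stood at 24, 25.7 and 25.3 FPKM against 0.695, 0.517 and 0.645 FPKM, a log2 fold change of 5.31 ± 0.14. Xaf1, a pro-apoptotic protein, read 10.9, 11.7 and 11.3 FPKM against 0.357, 0.364 and 0.361 FPKM. For these genes the 3 supernatant libraries lay within a narrow band, and replicate 3 was no exception.

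Zbp1, a sensor of Z-form nucleic acid, followed with 14.3, 13.2 and 15.4 FPKM against 0.584, 0.517 and 0.502 FPKM, a log2 fold change of 4.71 ± 0.11. Irf7, a transcription factor that amplifies interferon production, was at 23.3, 22.7 and 22.3 FPKM against 0.713, 1.12 and 1.05 FPKM. Irf7 overlaps Phrf1 on the other strand, which stood at 8.65 FPKM with supernatant and 9.39 FPKM without. Ifit3b, Oas1g, Trim30a and Phf11d, also among the 12, belong to families with close copies, and the split of reads between the copies is uncertain. The list also held Rpl30-ps10, a ribosomal protein pseudogene whose reads cannot be separated from those of its relatives with certainty, at 143, 288 and 243 FPKM against 6.87, 9.83 and 9.30 FPKM, with Control at a mean of 169 FPKM.

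**Figure D2:**
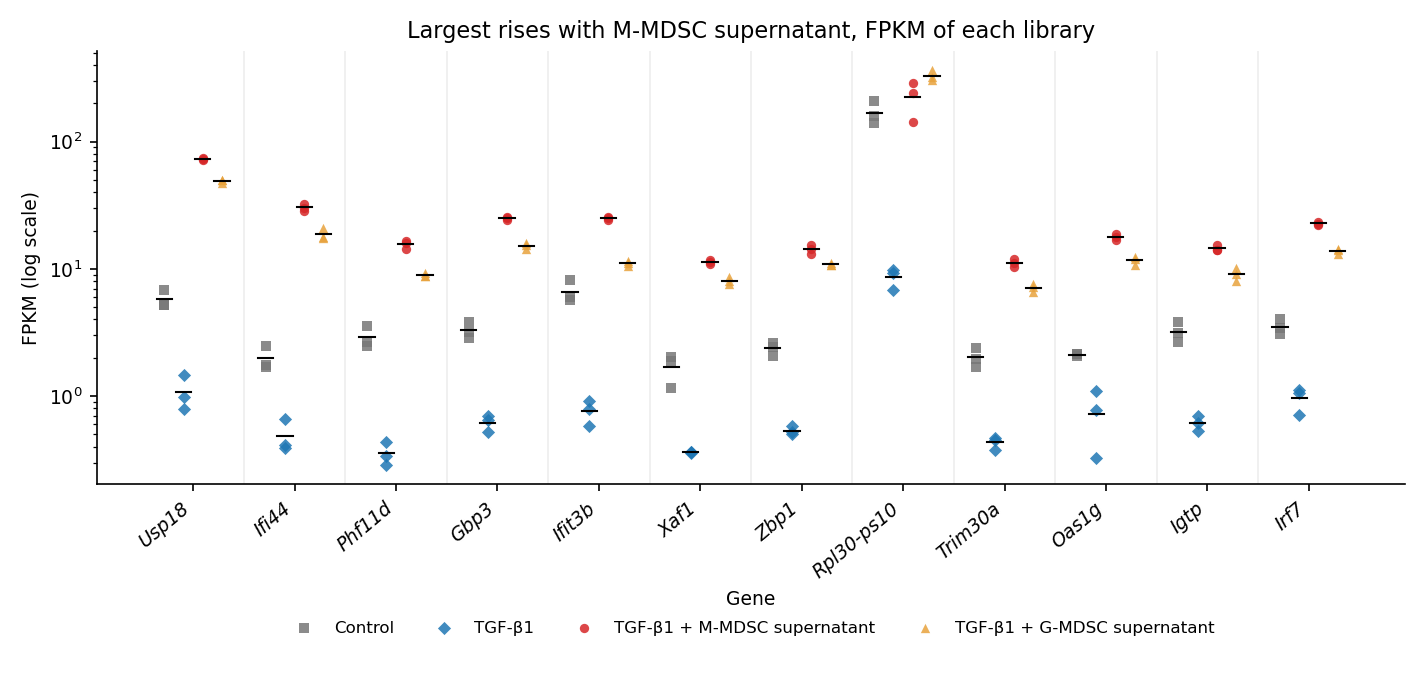
FPKM (log scale) of the 12 genes with the largest rise in each library of the 4 groups, with the group mean as a bar. In all 12 genes the 3 M-MDSC supernatant libraries lie above the 3 TGF-β1 libraries.

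Ifi44, Phf11d, Gbp3, Ifit3b, Xaf1, Zbp1, Trim30a and Igtp were under 1 FPKM in every TGF-β1 library and passed the filter through Control alone, so the filter fixed that Control lay above TGF-β1 for them and nothing is read from it. Tgtp2, Cxcl10 and C3, named below, were also under 1 FPKM in every TGF-β1 library. Usp18 and Irf7 reached 1 FPKM in only some TGF-β1 libraries and needed Control libraries to pass. For them too, nothing is read from the place of Control. The comparisons of Control and of M-MDSC supernatant with TGF-β1 also share the TGF-β1 libraries. Irf7 stood at a mean of 3.52 FPKM in Control, 0.961 FPKM with TGF-β1 and 22.8 FPKM with M-MDSC supernatant. Of the 285 genes that rose, 54 had a mean under 1 FPKM with TGF-β1.

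The promoters of the 5 genes with the largest rise that have an entry in RefSeq (GRCm38.p6) are shown because these genes moved most, each as the 250 bases before the transcription start, 5′ to 3′ on the gene's strand. Usp18 had no entry. Capitals mark matches, on either strand, to ISRE (GAAANNGAA), GAS (TTCNNNGAA), NF-κB (GGGANTTTC), AP-1 (TGANTCA), SMAD (CAGACA) or TEAD (GGAATG), which were searched for in the 250 bases before and 50 after the start.
Ifi44 (chr3:151749911-151750160, minus strand): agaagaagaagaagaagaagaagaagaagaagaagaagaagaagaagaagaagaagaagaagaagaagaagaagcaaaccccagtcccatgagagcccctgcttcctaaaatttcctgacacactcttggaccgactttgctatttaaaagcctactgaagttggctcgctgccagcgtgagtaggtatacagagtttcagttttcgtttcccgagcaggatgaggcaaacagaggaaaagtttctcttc
Phf11d (chr14:59365491-59365740, minus strand): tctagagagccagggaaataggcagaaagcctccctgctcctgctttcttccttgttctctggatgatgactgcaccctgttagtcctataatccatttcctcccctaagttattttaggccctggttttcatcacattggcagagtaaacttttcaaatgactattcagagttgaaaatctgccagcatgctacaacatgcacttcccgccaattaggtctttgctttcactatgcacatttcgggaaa
Gbp3 (chr3:142559794-142560043, plus strand): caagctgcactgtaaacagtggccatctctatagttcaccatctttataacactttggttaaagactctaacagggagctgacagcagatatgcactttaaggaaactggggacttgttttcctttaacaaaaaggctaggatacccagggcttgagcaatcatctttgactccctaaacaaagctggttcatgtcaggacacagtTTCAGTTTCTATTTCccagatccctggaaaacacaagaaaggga
Ifit3b (chr19:34607707-34607956, plus strand): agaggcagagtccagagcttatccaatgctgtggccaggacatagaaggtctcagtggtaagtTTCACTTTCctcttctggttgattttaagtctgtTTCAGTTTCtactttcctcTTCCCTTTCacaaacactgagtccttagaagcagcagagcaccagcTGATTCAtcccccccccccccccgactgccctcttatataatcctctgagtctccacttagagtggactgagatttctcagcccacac
Xaf1 (chr11:72301379-72301628, plus strand): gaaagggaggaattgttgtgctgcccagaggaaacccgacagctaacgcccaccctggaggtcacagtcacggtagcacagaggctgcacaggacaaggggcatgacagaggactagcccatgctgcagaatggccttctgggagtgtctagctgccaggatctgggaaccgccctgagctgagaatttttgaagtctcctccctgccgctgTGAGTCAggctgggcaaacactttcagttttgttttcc

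Gbp3 held 2 ISRE matches, read from base -44 and base -38 before the start, which overlap in their last and first letters and so form a single run of capitals. Gbp3 had 2 promoter entries, and the printed entry was chosen by its number of ISRE matches. Its count is therefore not independent of that choice. Ifit3b held 3 ISRE matches, from bases -187, -153 and -134, and an AP-1 match from base -88. In Ifi44 an ISRE match begins at base -3 and runs past the start, so it is not in capitals above. Xaf1 held an AP-1 match from base -38 and no ISRE match, and Phf11d held none of the 6 motifs. For Phf11d and Ifit3b the bases just after the listed start were not found in an annotated transcript of the gene. Their starts, and so the stretch searched and the motif positions, are uncertain. AP-1 as written reads the same on both strands, as does GAS.

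An ISRE match was found in 8.56% of all 32851 promoters of 300 bases in the table. Of the 113 genes that more than doubled, 84 had a promoter entry, and 49 of their 107 promoters (45.8%) held the motif. The share was 51.4% of 37 promoters for the interferon effectors and 77.8% of 9 promoters for the interferon-induced GTPases. Promoters of genes called lower held it in 13 of 203 cases (6.4%), close to the 6.93% of all tested genes. GAS was found in 15.0% of the promoters of genes that more than doubled against 8.3% of all, and AP-1 in 16.8% against 7.81%. NF-κB was found in 4.67% against 1.11%, SMAD in 18.7% against 21.0% and TEAD in 15.0% against 14.7%. Among the promoters of all tested genes the shares were 6.51% for GAS, 4.71% for AP-1, 0.891% for NF-κB, 15.3% for SMAD and 11.9% for TEAD, so that for SMAD the direction depends on the set compared. AP-1 was found in 10.3% of the promoters of genes called lower.

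Several of the effectors that rose were abundant. Ifitm3, which blocks viral entry at endosomal membranes, was at 1400, 1450 and 1470 FPKM with M-MDSC supernatant and at 212, 221 and 246 FPKM with TGF-β1. Its log2 fold change was 2.65 ± 0.059 (SE), 6.28-fold, with an edgeR adjusted p of 4.9e-10. Its neighbour in the same family, Ifitm2, was at 316, 330 and 338 FPKM against 296, 303 and 305 FPKM and was not called. Bst2 (tetherin), which holds budding virus at the cell surface, rose 19.8-fold, from 25.9, 31.0 and 33.6 FPKM to 618, 615 and 584 FPKM. Isg15, the ubiquitin-like modifier on which USP18 acts, rose 16.1-fold, from 6.79, 6.95 and 8.22 FPKM to 122, 121 and 117 FPKM. For these 3 rises the lowest supernatant library was several times the highest TGF-β1 library.

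Other effectors rose by less. Zc3hav1, which targets viral RNA for decay, read 24.2, 25.5 and 22.1 FPKM against 10.8, 10.4 and 11.9 FPKM, a log2 fold change of 1.09 ± 0.071. Isg20, an RNA exonuclease, read 13, 12.7 and 12.4 FPKM against 7.61, 7.68 and 8.05 FPKM, a log2 fold change of 0.69 ± 0.069. Ifit2, which binds viral RNA, read 8.84, 9.84 and 9.31 FPKM against 6.32, 6.24 and 5.94 FPKM, a log2 fold change of 0.58 ± 0.083. The groups did not overlap for any of the 3, and the same family's Ifit1 rose 8.69-fold.

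Of 27 tested genes of interferon signalling and nucleic acid sensing, 12 rose and none fell, against 2.45% of all genes called higher. Transcription factors and sensors were among the 12. Stat2 rose by 2.39 ± 0.088 (SE) and Irf9, its DNA-binding partner, by 2.56 ± 0.091 on the log2 scale. Neither the tested receptor chains nor the JAK kinases were called. Ifnar1, a chain of the type I receptor, read 5.72, 4.96 and 5.04 FPKM against 6.88, 6.16 and 4.35 FPKM, and the groups overlapped. Ifnar2, Ifngr1 and Jak1 had log2 fold changes of 0.16, -0.21 and 0.06. Ifnb1 and Irf8 were below the FPKM filter.

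Cytosolic RNA sensors rose. Ddx58 (RIG-I) read 23.9, 24.1 and 24.7 FPKM against 2.26, 2.47 and 2.42 FPKM, a log2 fold change of 3.32 ± 0.052 with an edgeR adjusted p of 7.59e-11. Ifih1 (MDA5) rose by 1.92 ± 0.071 and Dhx58 (LGP2) by 3.76 ± 0.11 on the log2 scale. Their adaptor Mavs read 12.9, 13.5 and 13.6 FPKM against 13.9, 14.7 and 13.4 FPKM and was not called. Irf3, the factor activated downstream of it, had a log2 fold change of -0.01. Leaving out single libraries left from 11 to 13 genes of the list called higher, 11 without replicate 3, and Myd88, with 0.44, was among those lost.

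Interferon-induced GTPases, which attack the membranes around intracellular microbes, were higher in 9 of 10 cases, against 2.45% of all genes, with a median log2 fold change of 3.8. Igtp (Irgm3) read 14.1, 14.1 and 15.4 FPKM against 0.695, 0.609 and 0.528 FPKM, and it overlaps Irgm2 on the same strand. Irgm1, a regulator of the family, read 49.5, 53.4 and 52.0 FPKM against 13.8, 14.0 and 13.7 FPKM, a log2 fold change of 1.88 ± 0.042 (SE). Tgtp1 and Tgtp2 are near-identical, so the split of reads between them is uncertain. Tgtp2 read 2.51, 2.92 and 2.65 FPKM against 0.133, 0.173 and 0.124 FPKM. Ifi47 was the member without a call, at 6.33, 6.83 and 7.68 FPKM against 2.26, 2.94 and 3.15 FPKM, and its edgeR adjusted p was 0.0513. The groups did not overlap there either.

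Of 18 tested genes of MHC class I antigen presentation 13 rose and none fell, against 2.45% of all genes called higher, with a median log2 fold change of 1.1. B2m, the invariant light chain, was at 704, 749 and 748 FPKM against 315, 320 and 332 FPKM, a log2 fold change of 1.17 ± 0.058 (SE). The heavy chain gene H2-D1 was at 47.5, 45.7 and 49.1 FPKM against 14.7, 16.3 and 16.8 FPKM, a log2 fold change of 1.55 ± 0.08. H2-K1, the other classical heavy chain gene of this strain, was uneven within groups, at 26.7, 52.2 and 56.7 FPKM against 14.6, 24.9 and 25.2 FPKM, and was not called. Class I genes are close copies of each other, and reads could be split between them.

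Upstream of the heavy chain, Tap1, a subunit of the peptide transporter, read 4.84, 5.28 and 4.81 FPKM against 1.15, 1.08 and 1.28 FPKM. The immunoproteasome subunit Psmb10 read 10.8, 8.32 and 9.41 FPKM against 3.90, 4.03 and 4.10 FPKM, a log2 fold change of 1.23 ± 0.11, and the proteasome activator Psme2 rose by 0.96 ± 0.10 on the log2 scale. The groups were apart in each. Psmb8 and Psmb9 were below the filter. The general folding factors of the endoplasmic reticulum that also serve class I, Calr, Pdia3 and Canx, had log2 fold changes of -0.01, 0.04 and 0.03. All 13 calls remained when any of the 6 libraries was left out.

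**Figure D3:**
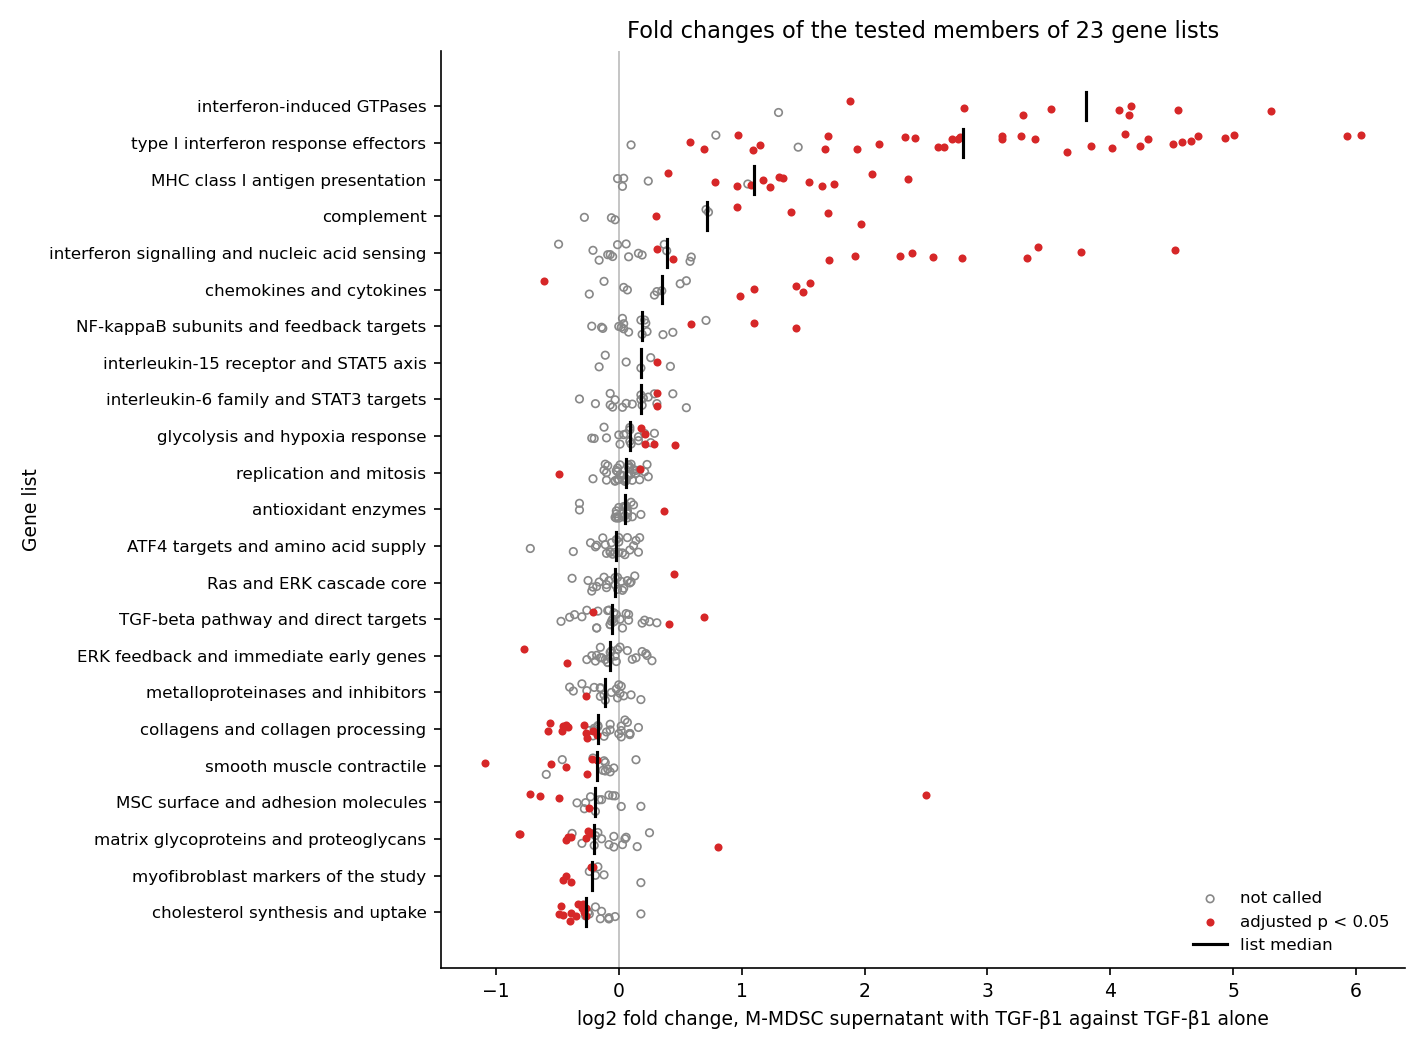
Log2 fold change of M-MDSC supernatant with TGF-β1 against TGF-β1 alone for each tested member of 23 gene lists, with filled points for an adjusted p under 0.05 and a bar at the list median. The interferon-induced GTPases, interferon effectors and MHC class I genes have medians of 3.8, 2.8 and 1.1, interferon signalling genes spread to both sides of 0 with a median of 0.39, and the contractile, collagen, matrix and cholesterol lists lie slightly to the left, with medians from -0.17 to -0.27.

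Of 15 tested chemokine and cytokine genes 5 rose and 1 fell, all of them chemokines, against 2.45% and 1.84% of all genes. Ccl2, which draws monocytes, was at 25.9, 24.6 and 27.9 FPKM with M-MDSC supernatant and at 11.3, 12.5 and 12.3 FPKM with TGF-β1, a log2 fold change of 1.10 ± 0.065 (SE). Control stood higher than either, at a mean of 61.6 FPKM. Its neighbour Ccl7 read 12.9, 10.7 and 10.9 FPKM against 5.22, 5.20 and 6.73 FPKM. Cxcl10, an interferon-induced attractant of T cells, read 1.48, 1.58 and 1.73 FPKM against 0.486, 0.506 and 0.664 FPKM. The membrane-bound Cx3cl1 fell by 0.61 on the log2 scale, and was called in 2 of the 6 fits that left out a library, with log2 fold changes from -0.66 to -0.51. Il6 read 2.21, 2.22 and 1.84 FPKM against 1.61, 1.49 and 1.11 FPKM without overlap, but its edgeR adjusted p was 0.0662.

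Inflammatory signalling outside the interferon genes moved less. Of 20 tested NF-κB subunits and targets, 3 were called, all higher, against 2.45% of all genes. They were Relb and the chemokines Ccl2 and Cxcl1 already counted, with Rela at a log2 fold change of -0.13 and Nfkbia at 0.36. Relb, at 0.59, was called in 1 of the 6 fits that left out a library. Of 20 tested genes of the interleukin-6 family and STAT3, 2 rose, Socs3 and Pim1, against 2.45% of all genes called higher. Socs3, a feedback inhibitor of JAK signalling, read 8.56, 8.56 and 8.86 FPKM against 6.53, 7.09 and 7.04 FPKM. Pim1, a kinase gene induced by STAT factors, read 22.6, 22.2 and 21.5 FPKM against 18.8, 16.9 and 17.0 FPKM. The groups were apart for both genes. Socs3 was called in 6 and Pim1 in 2 of the 6 fits that left out a library.

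Of 10 tested complement genes 5 rose, against 2.45% of all genes called higher. Between 3 and 5 were called in the fits that left out a library, 3 without replicate 1 of TGF-β1 and 4 without replicate 3 of the supernatant group, and 2 were called in all of them. C3, the central component, read 1.01, 0.798 and 2.30 FPKM against 0.445, 0.281 and 0.306 FPKM, and its highest value was in replicate 3. The liver is the main source of circulating C3, and the hepatocyte markers listed above were high in the same library. Their part in this result was not tested. Without replicate 3 the log2 fold change of C3 was 1.37 instead of 1.97, and it was still called. Serping1, the C1 inhibitor, was called in 2 of the 6 fits that left out a library, and Masp1, a lectin-pathway protease, stood at 8.31, 9.16 and 8.25 FPKM against 6.89, 6.96 and 6.72 FPKM and was called in 3 of those fits.

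Myofibroblast genes moved the other way, by smaller amounts. Over all genes tested 1.84% were called lower, the background for the counts of falls that follow. Of the 10 myofibroblast markers of the study, 5 fell, among them Acta2, Fn1, Col6a3 and Col3a1, none rose and the median log2 fold change was -0.22. A lower level in bulk RNA can come from fewer cells that express a gene or from less RNA per cell, which cannot be told apart here. The study names these genes in its account of the same libraries, so the list is not independent evidence of its direction. Their mean log2(FPKM + 1) was 8.33 ± 0.052 (SD, n = 3) with M-MDSC supernatant and 8.53 ± 0.032 (SD, n = 3) with TGF-β1, a difference of -0.20 for which the two-sided exact permutation test gave p = 0.1, the smallest that 3 against 3 allows. In Control the 3 values were 7.158, 7.184 and 7.121, well below both groups. Without replicate 3 of the supernatant group 2 of the 10 markers were called.

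Acta2 (chr19:34241090-34255590), α-smooth muscle actin, stood at 1510, 1640 and 1640 FPKM with M-MDSC supernatant and at 2080, 2180 and 2110 FPKM with TGF-β1. Its log2 fold change of -0.43 ± 0.054 (SE) had an edgeR adjusted p of 0.000775 and stayed called without any single library. The level with supernatant was close to that of untreated MSCs, at a mean of 1530 FPKM. Fn1 (fibronectin) read 409, 393 and 379 FPKM against 546, 499 and 477 FPKM, and its call was lost in 4 of the 6 fits that left a library out. Col1a1 was at 1040, 881 and 873 FPKM against 1030, 1040 and 1030 FPKM, so replicate 1 lay at the TGF-β1 level and the gene was not called. Timp1, an inhibitor of matrix proteases, went the other way, at 1050, 1010 and 1000 FPKM against 863, 901 and 914 FPKM, and was not called.

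Contractile genes of smooth muscle fell in 6 of 17 tested cases and rose in none, against 1.84% of all genes called lower. Tagln (transgelin), an actin-binding protein, read 119, 130 and 143 FPKM against 184, 193 and 190 FPKM, a log2 fold change of -0.55 ± 0.082 (SE). Actg2, the enteric smooth muscle actin, read 1.60, 2.61 and 1.49 FPKM against 3.87, 3.96 and 4.20 FPKM, a log2 fold change of -1.09 ± 0.2. Cnn1 (calponin) was at 33.5, 27.0 and 34.9 FPKM against 48.3, 41.5 and 52.1 FPKM, apart but not called. Acta2, Tagln and Actg2 were called with any library left out. The other 3, Tpm1, Tpm2 and Csrp1, had log2 fold changes from -0.18 to -0.26 and were called in 3, 2 and 4 of the 6 fits that left out a library. The list had 3 calls without replicate 2 or replicate 3 of TGF-β1 and 5 without replicate 3 of the supernatant group.

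Collagens and their processing enzymes fell in 11 of 31 tested cases. Loxl2, a lysyl oxidase that crosslinks collagen, read 17.5, 17.2 and 16.7 FPKM against 24.8, 27.0 and 24 FPKM, a log2 fold change of -0.58 ± 0.058 (SE). Lox itself was lower by less, at 461, 485 and 453 FPKM against 578, 569 and 533 FPKM. The 3 collagen VI chains fell, Col6a1 at -0.46, Col6a2 at -0.43 and Col6a3 at -0.45 on the log2 scale, and Col6a2 was called in 2 of the 6 fits that left out a library. Col6a1 read 43.9, 41.2 and 40.7 FPKM against 57.9, 56.5 and 56.8 FPKM, below its Control mean of 54.8 FPKM. Col6a3 read 28.9, 25.7 and 23.8 FPKM against 35.9, 36 and 34.0 FPKM, still above its Control mean of 11.7 FPKM. The intracellular hydroxylases P4ha1, Plod1 and Plod2 and the chaperone Serpinh1 had log2 fold changes between -0.07 and 0.09 and were not called. Without replicate 3, 6 genes of the list were called lower. Between 5 and 12 were called lower in the fits that left out a library, and 5 genes were called in all of them.

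**Figure D4:**
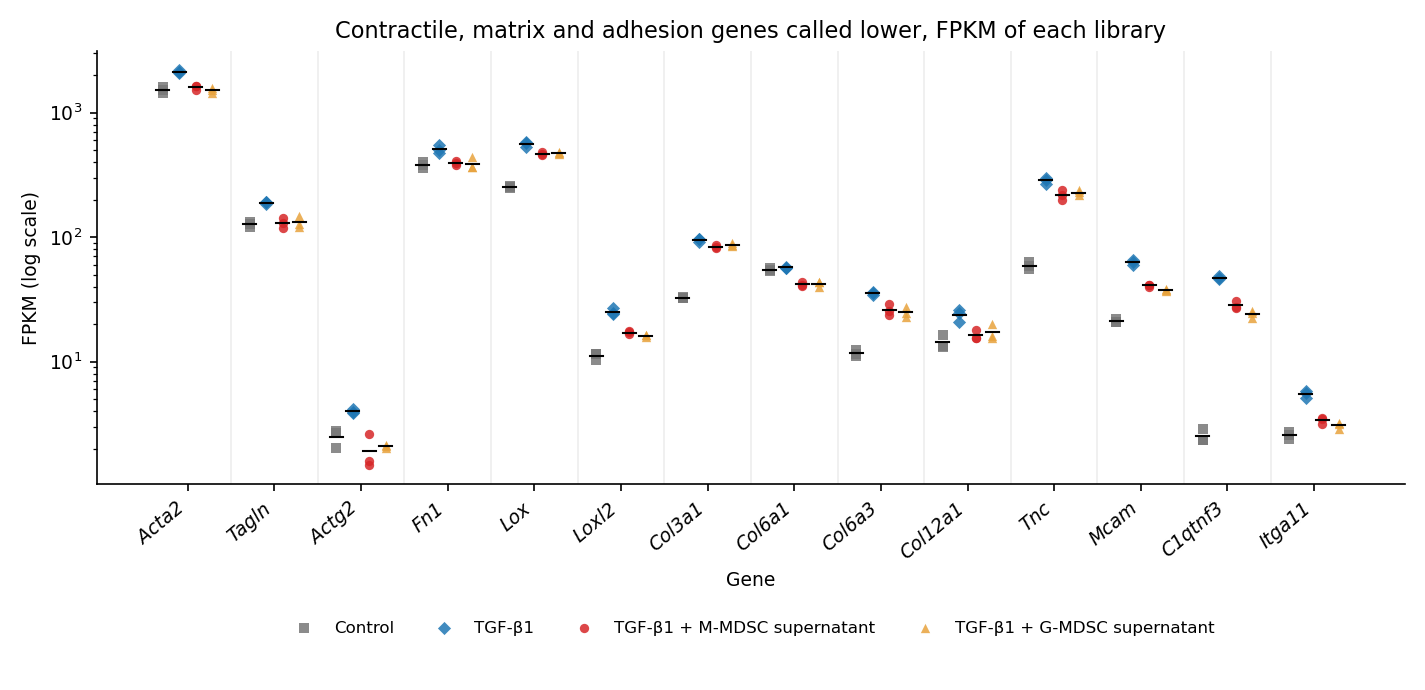
FPKM (log scale) of 14 contractile, matrix and adhesion genes that were called lower, in each library of the 4 groups, with group means as bars. The M-MDSC supernatant libraries lie just below the TGF-β1 libraries in all 14, close to Control for Acta2 and far above it for Tnc and C1qtnf3.

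Among 24 matrix glycoproteins and proteoglycans 8 fell and 1 rose, and none of the 8 was called in all of the fits that left out a library. Tnc (tenascin-C) read 238, 216 and 198 FPKM against 287, 300 and 269 FPKM and was called in 5 of those 6 fits. Postn (periostin) read 1.96, 1.99 and 1.75 FPKM against 3.59, 3.28 and 3.03 FPKM, and was called in none of them. The gene that rose was Thbs2, an antiangiogenic thrombospondin, at 199, 199 and 239 FPKM against 136, 107 and 115 FPKM, a log2 fold change of 0.81 ± 0.10. Thbs1, its relative and an activator of latent TGF-β, fell by 0.25 on the log2 scale, from 855, 848 and 806 FPKM to 708, 727 and 702 FPKM. The groups were apart for both genes, in opposite directions, but Thbs2 was called in 6 and Thbs1 in 0 of the 6 fits that left out a library.

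Surface and adhesion genes included 1 rise and 4 falls among 17 tested, and 2 of the falls, Alcam and Pdgfrb, were each called in 2 of the 6 fits that left out a library and not without replicate 3. Ly6a (Sca-1), a stem cell antigen inducible by interferon, read 82.6, 92.1 and 103 FPKM against 16.7, 13 and 18.8 FPKM, a log2 fold change of 2.50 ± 0.12 (SE), and untreated MSCs stood higher still at a mean of 245 FPKM. Mcam (CD146), a perivascular adhesion molecule, read 40.1, 41.4 and 41.2 FPKM against 59.5, 63.2 and 65.4 FPKM, a log2 fold change of -0.64 ± 0.042. Itga11, the collagen-binding integrin chain of myofibroblasts, read 3.52, 3.15 and 3.48 FPKM against 5.81, 5.65 and 5.09 FPKM. Cd44 was at 51.0, 48.5 and 56.4 FPKM against 50.7, 59.8 and 48.5 FPKM, with overlapping groups, and Vcam1 at 1.31, 1.39 and 1.71 FPKM against 1.64, 1.53 and 1.61 FPKM. Icam1 was below the filter in every library.

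Of the other 12 largest falls, C1qtnf3, a secreted C1q/TNF-related protein, was the most abundant apart from Mcam, at 27.5, 30.5 and 27.2 FPKM against 46.1, 49.0 and 46.7 FPKM, a log2 fold change of -0.75 ± 0.084 (SE). Control stood at a mean of 2.53 FPKM. Ulbp1, a ligand of the NKG2D receptor of killer cells, read 2.39, 2.63 and 2.88 FPKM against 5.58, 5.08 and 5.09 FPKM. It overlaps Gm46209 on the other strand, at 20.8 and 19.9 FPKM. Lrrc47 had the largest fall, but replicate 1 of TGF-β1, at 8.06 FPKM, lay near the supernatant libraries at 6.09, 7.00 and 6.76 FPKM rather than with the other TGF-β1 libraries at 21.2 and 22.4 FPKM. Kctd20 read 4.40, 4.23 and 5.02 FPKM against 10.7, 9.93 and 10.3 FPKM, while the G-MDSC supernatant libraries held both levels, at 9.98, 4.59 and 10.9 FPKM. Lrrc47 was called in 1 and Kctd20 in 0 of the 6 fits that left out a library, with log2 fold changes from -1.74 to -1.15 and from -1.27 to -1.15.

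In the TGF-β pathway 2 of 29 tested genes rose and 1 fell, against 2.45% and 1.84% of all genes. Tgfbr3 (betaglycan), a co-receptor, read 5.94, 5.77 and 6.74 FPKM against 4.41, 3.03 and 3.84 FPKM, a log2 fold change of 0.69 ± 0.12 (SE). Id2, a helix-loop-helix inhibitor, read 6.75, 5.54 and 6.46 FPKM against 4.75, 4.58 and 4.61 FPKM. Smurf2, a ubiquitin ligase that targets SMAD proteins and receptors, read 21.7, 22.2 and 21.5 FPKM against 25.2, 25.4 and 24.2 FPKM. The groups were apart for the 3 genes, and Id2 was called in 1 of the 6 fits that left out a library. Smad3 stood at 13.8, 13.2 and 13.8 FPKM against 14.0, 13.9 and 13.9 FPKM, and Smad2 was uneven with TGF-β1, at 4.36, 7.56 and 4.95 FPKM against 4.25, 4.24 and 3.83 FPKM. Neither was called, nor was the inhibitory Smad7 or either signalling receptor. These are transcript levels, and phosphorylation of the SMAD proteins was not tested here.

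Because IL-15, Ras and Erk1/2 are among the signals the study examined, their genes were read out as well. Il15 was below the filter, at 0.335, 0.361 and 0.543 FPKM with M-MDSC supernatant and at 0.0899, 0.0456 and 0.137 FPKM with TGF-β1. Il15ra, the private receptor chain, was at 0.218, 0.310 and 0.182 FPKM against 0.189, 0.163 and 0.226 FPKM. Il2rb and Il2rg, the shared chains, reached at most 0.226 FPKM in the 6 libraries. These levels were too low to be tested.

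Hras, Nras and Mapk3 were not called, with log2 fold changes of -0.03, -0.01 and -0.16. The study followed Ras protein and phosphorylated Erk by western blot. Transcript levels measure neither, so Ras protein and Erk phosphorylation were not tested here. Of 22 tested genes of the Ras and Erk cascade 1 was called, a share near the 4.29% of all genes tested. It was Map2k1 (MEK1), at 44.9, 43.3 and 43.4 FPKM against 30.7, 32.9 and 31.7 FPKM, a log2 fold change of 0.45 ± 0.046 (SE). Among 26 genes that Erk signalling induces 2 fell, Egr2 and Egr3, against 1.84% of all genes called lower. Egr2, an immediate early transcription factor, read 5.03, 5.45 and 4.58 FPKM against 7.74, 9.64 and 8.03 FPKM, a log2 fold change of -0.77 ± 0.10. Egr3 was called in 0 of the 6 fits that left out a library. The feedback genes Dusp6 and Spry2 had log2 fold changes of -0.22 and 0.07 and were not called.

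Of 22 tested genes of cholesterol synthesis and uptake 12 fell and none rose, against 1.84% of all genes called lower, with a median log2 fold change of -0.27. The 12 include Insig1, a regulator, and Stard4, a sterol carrier. Fdps, which makes farnesyl pyrophosphate, read 23.2, 20.9 and 20.6 FPKM against 28.5, 28.6 and 31.2 FPKM, a log2 fold change of -0.47 ± 0.061 (SE). Nsdhl, a late step of sterol synthesis, read 20.2, 19.8 and 19.8 FPKM against 25.2, 27.9 and 27.7 FPKM. In both genes replicate 1 was the highest of the supernatant libraries and still lay below the TGF-β1 libraries. Without replicate 3, 5 of the 12 were called, and 4 were called in every fit that left out a library.

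Glycolysis and hypoxia genes rose in 5 and fell in 1 of 22 tested cases, against 2.45% and 1.84% of all genes, led in level by Pgk1, at 402, 382 and 402 FPKM against 343, 325 and 362 FPKM, and between 1 and 4 genes of the list were called higher in the fits that left out a library. The fall, of Ndrg1, was called in 0 of those 6 fits. No ATF4 target of 25 tested was called, with a list median of -0.03. Of 24 antioxidant genes 1 rose, Prdx5, and of 20 metalloproteinases and inhibitors 1 fell, Adamts2, shares near the 4.29% of all genes called. Prdx5 was called in 3 and Adamts2 in 1 of the 6 fits that left out a library. Of 38 replication and mitosis genes 2 were called, against 4.29% of all genes. Mcm6 rose by 0.17 and the CDK inhibitor gene Cdkn2c fell by 0.49 on the log2 scale, and the call of Cdkn2c was lost in each of the 6 fits that left out a library.

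Whether the effects of the supernatants differ was tested directly, M-MDSC against G-MDSC supernatant. Between them 17 genes were called (0.146% of those tested), 14 higher and 3 lower, and 731 had an unadjusted p under 0.05. All 14 that were higher were also called higher against TGF-β1, against 2.45% of all genes, and none of the 3 lower was called against TGF-β1. Both comparisons use the same 3 M-MDSC supernatant libraries, which favours agreement in direction, so this overlap is not independent evidence. Ifit3 was at 27.3, 30.5 and 31.9 FPKM with M-MDSC supernatant and at 12.3, 12.1 and 12.5 FPKM with G-MDSC supernatant, a log2 difference of 1.28 ± 0.13 (SE) with an edgeR adjusted p of 0.00314. Its near copy Ifit3b read 24.4, 25.4 and 25.2 FPKM against 11.6, 11.2 and 10.5 FPKM. Tgtp1 and Tgtp2 differed by 1.28 and 1.38 on the log2 scale. The hepatocyte markers were high in 1 M-MDSC and 3 G-MDSC supernatant libraries, and 9 of the 17 were called without that M-MDSC library.

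Smaller differences separated the supernatants for abundant effectors. Ifit1 read 35.6, 38.8 and 37.5 FPKM against 23.5, 22.6 and 24.3 FPKM, a log2 difference of 0.67 ± 0.063. Lgals9 (galectin-9), an interferon-induced ligand of T cell receptors, read 14.2, 15.2 and 15.7 FPKM against 9.10, 8.99 and 8.26 FPKM. Irgm1 and Parp12 differed by 0.40 and 0.45. These genes, Ifit3, Tgtp1, Lif and Psmd5 were called in all 6 fits that left out an M-MDSC or G-MDSC library. Bst2, Isg15, Gbp3, Tor3a, Cmpk2 and Ifit3b were called in none of those fits, with adjusted p-values up to 0.199, although their M-MDSC and G-MDSC libraries did not overlap with all libraries in.

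Lif, a cytokine of the interleukin-6 family, was the gene furthest below, at 2.12, 2.22 and 1.89 FPKM with M-MDSC supernatant and 3.55, 3.61 and 3.56 FPKM with G-MDSC supernatant, a log2 difference of -0.78 ± 0.082 (SE). Psmd5, a proteasome assembly chaperone, read 10.9, 10.6 and 11.3 FPKM against 17.0, 16.1 and 15.4 FPKM, and TGF-β1 alone stood at 10.2, 9.66 and 10.5 FPKM. Nfkbiz, an inducible IκB protein, read 7.14, 6.11 and 6.04 FPKM against 9.21, 9.53 and 9.45 FPKM. Nfkbiz and Ddx58 were each called in 1 of the 6 fits that left out a library, and Tgtp2 in 5. No contractile, collagen or cholesterol gene was called between the supernatants, and the mean of the 10 myofibroblast markers differed by 0.02 with a two-sided exact permutation p of 0.7. For Acta2 the log2 difference was 0.08 ± 0.054.

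**Figure D5:**
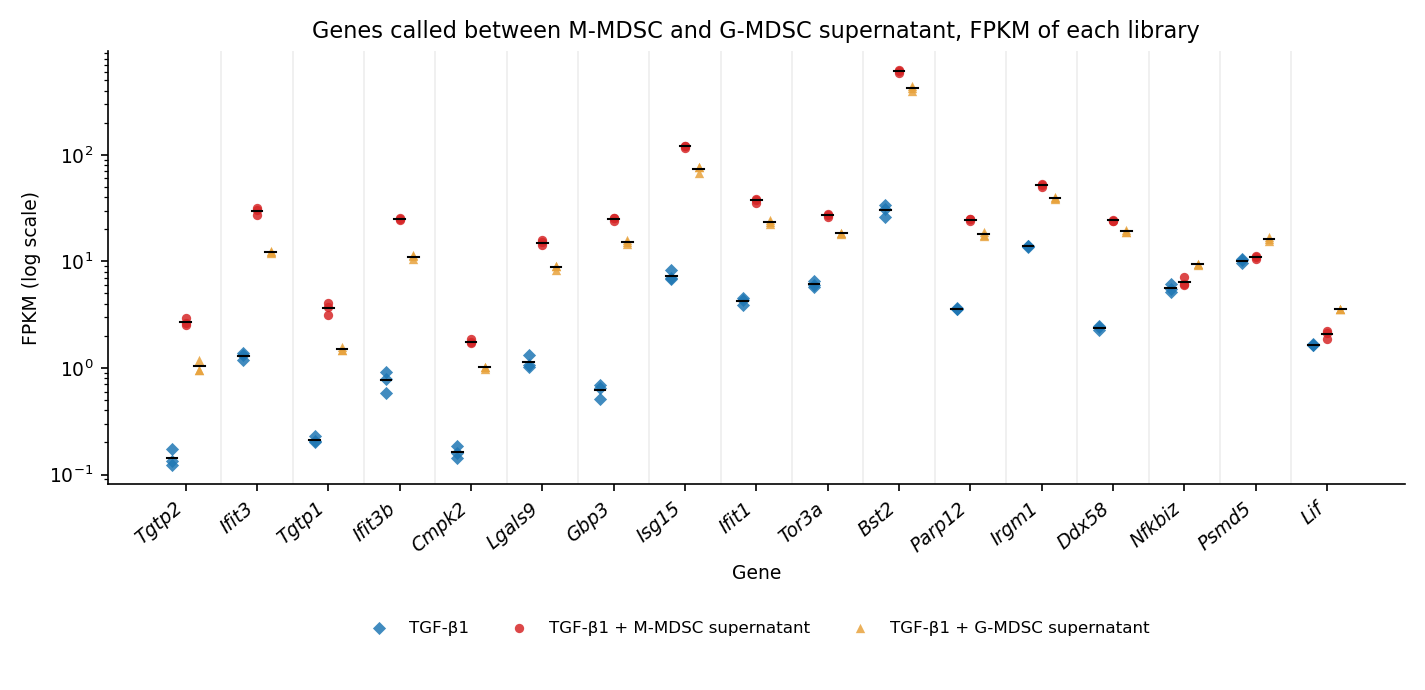
FPKM (log scale) of the 17 genes that differed from M-MDSC to G-MDSC supernatant, in the libraries of both and of TGF-β1 alone, with group means as bars. The 14 genes to the left are highest with M-MDSC supernatant, and Nfkbiz, Psmd5 and Lif are highest with G-MDSC supernatant.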

How the data were processed

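Poly(A) RNA from 12 libraries, 3 per group, was sequenced as paired ends with a stranded kit. The authors deposited 1 table that holds raw counts and FPKM per gene, the latter scaled by them to transcript length and library size. The submitters' processing notes name cutadapt 1.9, HISAT2 2.0.4 and StringTie 1.3.4d, with edgeR and DESeq2 without versions. The counting tool and its strand setting are not given in the sources used here, and an FPKM of 0.0001 stands for a count of 0. Of nonzero counts up to 12, 44.3% were multiples of 4, so counting error alone understates the noise.

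Genes that reached 1 FPKM in 3 or more of the 6 TGF-β1 and Control libraries were tested from the deposited counts with edgeR 4.0.16 (R 4.3.3), TMM scaling and the quasi-likelihood test, all 12 libraries in 1 fit. A call is a Benjamini-Hochberg adjusted p under 0.05 over the 11619 genes. Fold changes are log2 ± SE of that fit. The script was tested on simulated data. Alternatives used DESeq2 1.42.0 and limma 3.58.1 on log2(FPKM + 1). The mean of the myofibroblast markers was compared by an exact permutation test (scipy 1.17.1).

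Named genes were the 12 largest rises and 12 largest falls among called genes without overlap and with a mean of at least 5 FPKM in either group, up to 6 members per list with the lowest adjusted p, members needed for a list's role, the genes the study names, and the 5 largest differences each way between supernatants. Members without a call, and others beyond that rule, were named after their values were seen. The genes, lists and tests were chosen with earlier results of these data known. Same-numbered libraries did not deviate together (mean correlation -0.00142 over 18 pairs), so the numbers were not used as pairs. Some items are not reported here.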

Additional observations from a re-analysis of the deposited data

Results flagged for a closer look

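The effects of the supernatants differed, by the test of the difference itself, for 17 genes. The log2 difference of M-MDSC from G-MDSC supernatant was 1.38 for Tgtp2, 1.28 for Ifit3 and Tgtp1, 1.18 for Ifit3b, 0.80 for Cmpk2, 0.78 for Lgals9, 0.72 for Gbp3, 0.70 for Isg15 and 0.67 for Ifit1. It was 0.57 for Tor3a, 0.53 for Bst2, 0.45 for Parp12, 0.40 for Irgm1 and 0.35 for Ddx58. Below 0 lay Nfkbiz at -0.54, Psmd5 at -0.56 and Lif at -0.78. Bst2, Isg15, Gbp3, Tor3a, Cmpk2 and Ifit3b were called in 0 of the 6 fits that left out a library, and Nfkbiz and Ddx58 in 1.

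Signal was also found in genes that were not tested. With M-MDSC supernatant, 72 such genes reached at least 1 FPKM in all 3 libraries. With G-MDSC supernatant 110 did so, and 36 did so with both. The filter itself fixes that no untested gene does so in all TGF-β1 or all Control libraries, so their levels there are no separate result. Among them were the interferon-induced Mx2, at 7.07, 7.87 and 7.47 FPKM, and the kidney-expressed Gpx3, at 17.4, 30.2 and 25.1 FPKM. Replicate 3 of the M-MDSC supernatant group held the highest sums of its group for hepatocyte markers, 69.8 FPKM, and for kidney tubule markers, 86.5 FPKM. The source of these transcripts was not tested.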

How the results depend on the processing

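The 499 calls became 754 with DESeq2, 298 with only the 6 libraries compared in the fit, 162 by the rule of the study and between 281 and 388 without single libraries. The 285 higher genes became 446 with no filter on FPKM, 186 with a filter at 5 FPKM, 135 by the rule of the study and between 214 and 240 without single libraries. The 214 lower genes became 346 with DESeq2, 89 with only the 6 libraries, 27 by the rule of the study and between 67 and 158 without single libraries. The 17 genes between supernatants became 111 with DESeq2, 39 with only the 6 libraries, 29 with limma, 47 by the rule of the study and between 9 and 17 without single libraries. With the replicate number as a block, 389 genes were called, 237 higher and 152 lower, and 12 between the supernatants. The gene lists gave 46 counts of calls, for each list and direction. Of these, 14 moved beyond a fixed ratio with only the 6 libraries and 11 with DESeq2. Direction was followed gene by gene for 165 genes against TGF-β1 and for the 17 between supernatants. None of those that had been called changed direction under these alternatives. The fold changes of some genes near 0 without a call did, such as Cd44, from -0.11 to 0.06 without single libraries. The causes of these shifts were not tested.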
